A study of Capra hircus with 12 samples.

Results

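The comparison described here set mammary glands of Palmera goats against those of Majorera goats when both were fed the control diet. It used 6 of the 12 libraries, 3 from Palmera control goats (PC) and 3 from Majorera control goats (MC), chosen by the breed and diet in the sample labels. The genes are the 755 that the authors deposited for this pair of groups, out of 14469 genes they tested (5.22%), and 4974 genes are held by the deposited tables of all pairs of groups. Of the 755 genes, 311 were higher in the PC group (2.15% of the genes tested) and 444 were lower (3.07%). A gene entered the deposited table only with an unadjusted p of the authors below 0.05 for this same contrast, so counts over the 755 genes describe a selected set.

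Palmera and Majorera are dairy goat breeds of the Canary Islands. The study asked how the mammary gland of each breed responded to seasonal weight loss, and the other 6 libraries came from feed-restricted goats of the same breeds (PE for Palmera, ME for Majorera, 3 each). All goats were lactating, and the gland was biopsied on day 22 of the trial. Each library came from a separate goat. The control goats of both breeds shared a pen, and the breeds also differed in body weight and milk yield at the start of the trial, which cannot be told apart from breed here. A biopsy holds secretory epithelium together with stroma, vessels, fat and immune cells, and its share of each was not measured. Ages were not given in the sources used here.

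In the lactating gland, luminal epithelial cells make caseins, whey proteins, lactose and milk fat, and myoepithelial cells contract around them to eject the milk. Fibroblasts lay down the collagens and small proteoglycans of the surrounding stroma, which adipocytes fill in glands with less secretory tissue. Breeds can differ in the activity of single genes through their DNA sequence, and also in the make-up of the tissue.

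The libraries matched their tissue label. CSN2, which encodes beta-casein, took 52.6%, 32.8% and 31.1% of mapped reads in PC1, PC2 and PC3, against 21.2%, 27.4% and 27.6% in MC1, MC2 and MC3. The means were 38.8% ± 12 in the PC group and 25.4% ± 3.62 in the MC group (SD, n = 3 each), and the 3 PC shares lay above the 3 MC shares. In a two-sided exact permutation test this gave p = 0.1, the smallest that 3 libraries against 3 can give. Once libraries were scaled by the trimmed mean of M values (TMM), the groups overlapped and the difference was 4.5 percentage points. CSN3 (kappa-casein) took 6.54 to 7.28% of reads in the PC group and 5.28 to 7.28% in the MC group. LALBA, the alpha-lactalbumin of lactose synthesis, took 0.952 to 2.23% in the PC group and 0.837 to 1.5% in the MC group. PAEP, the whey protein beta-lactoglobulin, took 2.36 to 5.05% in the PC group and 2.25 to 2.89% in the MC group. The PC libraries had 29.4 to 35.4 M mapped reads and the MC libraries 37 to 38.1 M. Levels below are CPM, the counts scaled to a common TMM-adjusted library size, and log2 fold changes are PC over MC from edgeR's quasi-likelihood test. CPM is not corrected for gene length, so levels are compared between libraries and not between genes.

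In the fit used here a single gene passed the thresholds of the study for the breed difference on the control diet. The study itself reported more genes at these thresholds from its own edgeR fit, among them POSTN, CPXM2, CD109, RGS4, DPP4 and LIPG. With an adjusted p below 0.05 (Benjamini-Hochberg over the 14469 genes), an absolute log2 fold change over 1.5 and a library with over 100 counts, edgeR called RNASE1 alone (0.00691% of the genes tested). DESeq2 called 4 genes by the same rule (0.0276%), namely RNASE1, POSTN, CD109 and RGS4, and edgeR called 18 when the rows that set the spread were not filtered on low values. DESeq2 estimated its spread over all genes with counts, including those selected for this contrast, so the 2 tools were not on an equal footing. Every other gene below is given by its values, and higher or lower then states the direction of those values and not a call.

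RNASE1, the secreted pancreatic-type ribonuclease that degrades RNA outside cells and is known in human from vascular endothelium, fell in the PC group. It had 1.06, 1.16 and 0.78 CPM in PC1, PC2 and PC3, against 162, 150 and 511 CPM in MC1, MC2 and MC3. All PC goats were near 1 CPM and all MC goats were at or above 150 CPM, so that the groups lay far apart, and MC3 stood above MC1 and MC2. The log2 fold change was -8.09 (SE 0.61, adjusted p = 0.00156 by edgeR), and it lay between -8.38 and -7.28 when each library was left out in turn. Without PC2 the adjusted p was 0.116 and RNASE1 was no longer called. In bulk samples fewer cells of a type and less RNA per cell cannot be told apart. The same gene was assayed by the authors by RT-qPCR, and its primers are printed 5′ to 3′ because they mark the transcript that was measured in this second way.
RNASE1 forward primer: tctggaagaggaggattgc
RNASE1 reverse primer: gctggagaaaactgggtctg

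RNASE1 was also lower in Palmera goats under feed restriction, in libraries that share nothing with the control comparison. There it had 0.0458, 0.0387 and 0.0635 CPM in PE1, PE2 and PE3, against 0.306, 0.636 and 0.236 CPM in ME1, ME2 and ME3. The groups again did not overlap, with a log2 fold change of -2.93 (SE 0.57, adjusted p = 0.593 by edgeR, not called). Both restricted groups were below 1 CPM, in libraries scaled apart from the control libraries, whereas each MC library had at least 150 CPM.

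**Figure D1:**
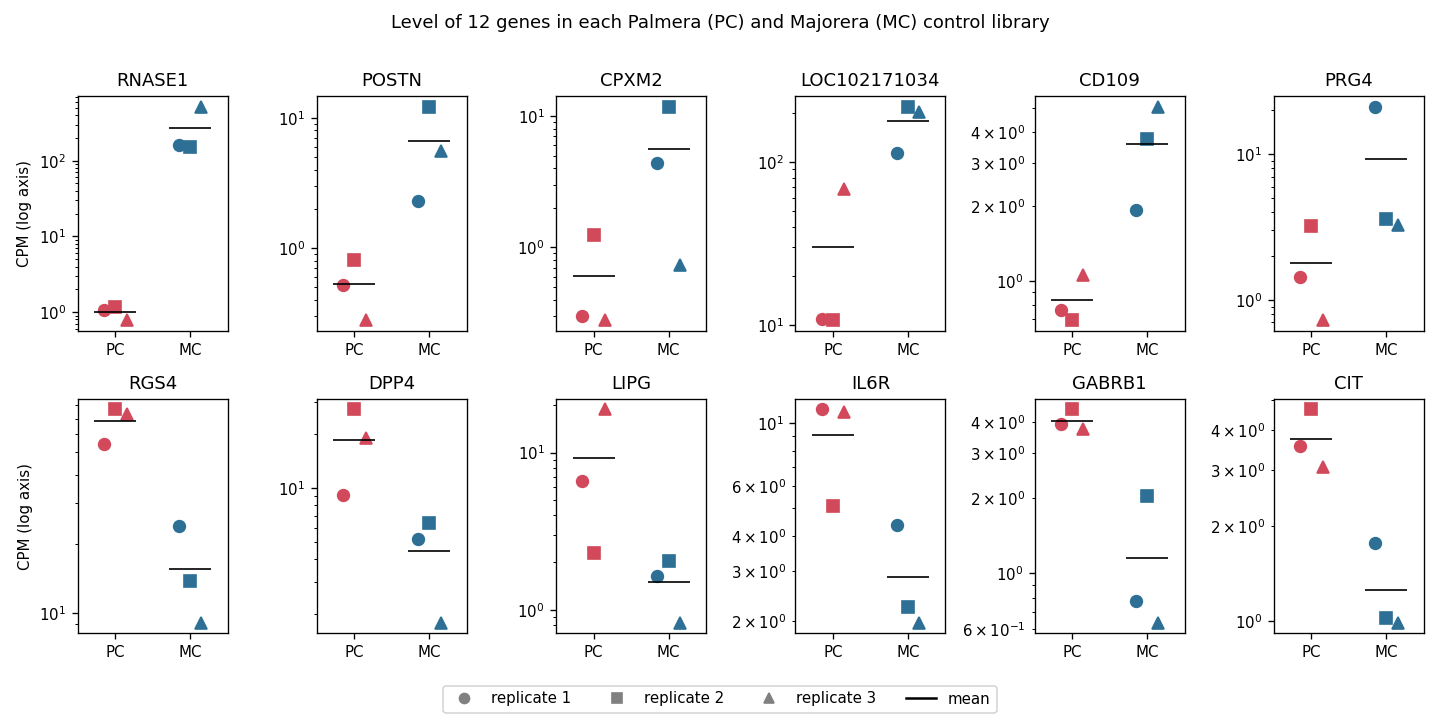
CPM (log axes) of 12 genes in the 3 Palmera control libraries (PC, red, left) and the 3 Majorera control libraries (MC, blue, right). Marker shapes give the replicate and horizontal lines the mean. RNASE1 lies between 0.78 and 1.16 CPM in the PC group and between 150 and 511 CPM in the MC group, while CPXM2 overlaps between the groups.

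Genes of the extracellular matrix were the named list with the most members at lower values in the PC group. POSTN, which encodes periostin, a matrix protein of fibroblasts that binds collagen and integrins, had 0.517, 0.804 and 0.279 CPM in the PC libraries, against 2.31, 12.1 and 5.6 CPM in the MC libraries. The groups did not overlap and MC2 was highest. The log2 fold change was -3.64 (SE 0.60), with an adjusted p of 0.552 by edgeR and 2.8e-05 by DESeq2. CPXM2, a carboxypeptidase-like secreted protein, had 0.299, 1.25 and 0.279 CPM in the PC libraries, against 4.41, 11.7 and 0.732 CPM in the MC libraries. Here MC3 lay below PC2, so the groups overlapped (log2 fold change -3.20, SE 0.88, and -2.08 without MC2).

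Of the 54 genes of the fibroblast and matrix list, 20 were in the deposited table (37.0%, against 5.22% of all genes tested), all 20 with lower values in the PC group. Their median log2 fold change was -1.07. An unadjusted p below 0.05 in edgeR was held by 14 of the 20, beside 627 of the 755 listed genes. The groups did not overlap in 6 of the 20, beside 64.4% of the listed genes. None of the 20 passed the adjusted threshold in edgeR, and POSTN passed it in DESeq2. Counts in the control libraries were held for 36 list members in all, of which 32 were lower and 4 higher (median -0.87). All members that were higher, COL12A1, COL4A1, COL4A2 and LTBP2, had log2 fold changes of 0.03 to 0.20. The 16 members outside the table were 12 lower and 4 higher (median -0.59). Such members had counts because other contrasts that use PC or MC libraries listed them, or because they were among rows not chosen by any contrast. They are therefore not an unselected background, and the same holds for the members with counts of each list or family below. Over 768 genes not chosen for differing, which had to reach 1 CPM in 3 libraries, the median log2 fold change was 0.02.

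The level of these matrix genes also spread within the MC group. COL1A1, a chain of type I collagen, had 29.2, 51.9 and 71 CPM in the PC libraries, against 118, 298 and 26.8 CPM in the MC libraries. MC3 was below all PC goats, whereas MC1 and MC2 were above them. COL1A2 had 27.5, 55.4 and 56.1 CPM in the PC libraries, against 119, 248 and 29.5 CPM in the MC libraries, and COL3A1, of type III collagen, had 42.2, 89 and 81.8 CPM in the PC libraries, against 152, 326 and 38.6 CPM in the MC libraries. These collagens thus shared the low value of MC3 and the high value of MC2, without which their log2 fold changes of -1.54, -1.51 and -1.28 were -0.51, -0.68 and -0.42. MC3 lay below the highest PC library in 14 of the 20 genes, whereas MC1 and MC2 did so in 0. Without MC3 all 20 genes separated the groups and had an unadjusted p below 0.05 (median -1.39). Without MC2 the count of unadjusted p below 0.05 was 7, without PC1 it was 7, and without MC1 it was 8. The summed level of the list members with counts was 551, 653 and 645 CPM in the PC libraries, against 1152, 1656 and 499 CPM in the MC libraries. Of the 17 listed matrix genes with counts under feed restriction 13 were lower in PE than in ME, 0 of them with an unadjusted p below 0.05 in edgeR, and 4 were higher. Of these 4, SVEP1 alone had such a p, with 0.984, 1.24 and 1.16 CPM in the PE libraries, against 0.39, 0.609 and 0.733 CPM in the ME libraries (log2 fold change 0.95, SE 0.31). Some of the 17, among them COL1A1, COL1A2, COL3A1, POSTN and SVEP1, had themselves been listed by p for PE over ME. Whether the amount of stroma in the biopsies carried the values of the matrix genes was not tested.

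**Figure D2:**
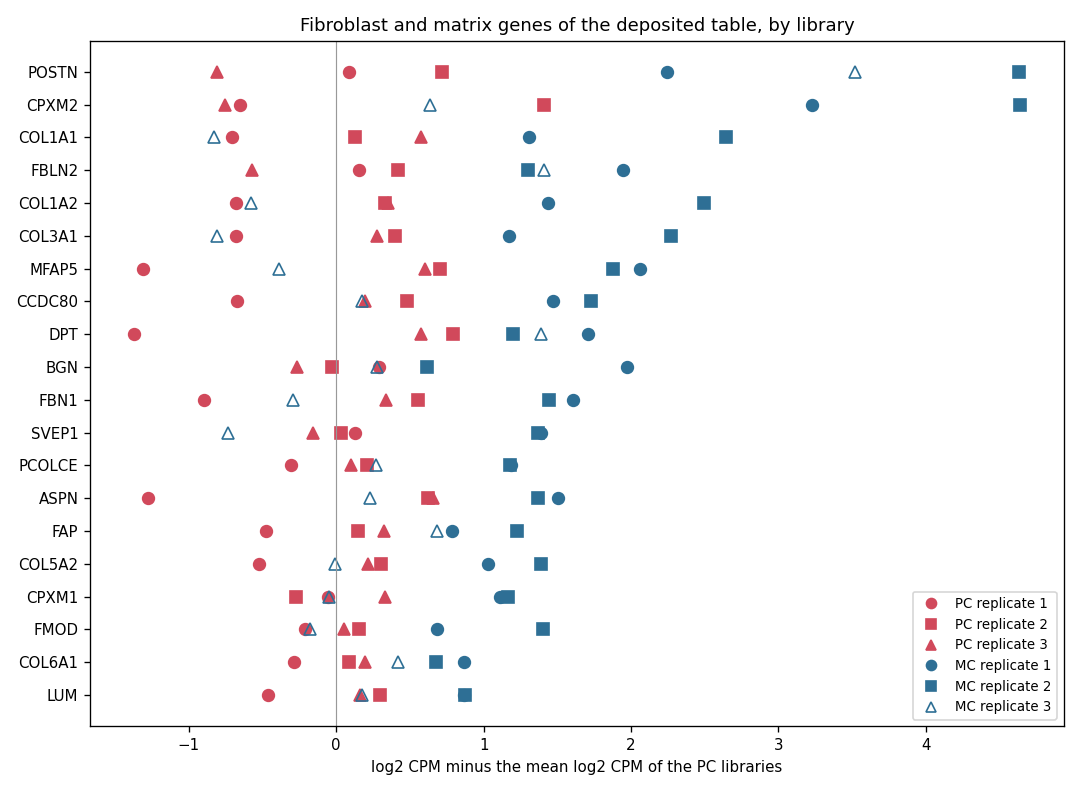
Log2 CPM of the 20 fibroblast and matrix genes of the deposited table in each control library, as the difference from the mean of the PC libraries (PC red, MC blue, MC3 open). MC1 and MC2 lie right of the PC libraries in each row, while MC3 lies below the highest PC library in 14 of 20.

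Some matrix genes of the table separated the groups, among them FBLN2 and PCOLCE of the same list. FBLN2 (fibulin 2, an elastic fibre protein) had 0.599, 0.721 and 0.362 CPM in the PC libraries, against 2.08, 1.33 and 1.43 CPM in the MC libraries. PCOLCE, the enhancer of procollagen C-proteinase, had 7.84, 11.2 and 10.4 CPM in the PC libraries, against 22.1, 22 and 11.7 CPM in the MC libraries. In both genes all MC libraries were above all PC libraries, with log2 fold changes of -1.52 (SE 0.35) and -0.92 (SE 0.27). For PCOLCE the gap was narrow, with 11.7 CPM in MC3 against 11.2 CPM in PC2. VIM, the intermediate filament of mesenchymal cells, had 70.7, 87 and 95.8 CPM in the PC libraries, against 144, 114 and 117 CPM in the MC libraries, and was also separated (log2 fold change -0.57, SE 0.22). With mapped reads alone the VIM log2 fold change was -0.19 and the groups overlapped. PC3 then had 0.0112% of reads, above MC2 with 0.00989% and MC3 with 0.00998%. COL6A1, a chain of type VI collagen, had 29.5, 38.1 and 41.2 CPM in the PC libraries, against 65.6, 57.3 and 48.1 CPM in the MC libraries. Of the 8 collagens, laminins and integrins listed, 7 had lower values and 1, COL11A1, a higher value (2.02, SE 0.71). A further 21 members of this family had counts, 9 higher and 12 lower (median -0.15). COL11A1 was below 0.5 CPM in every control library.

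A few adipocyte genes were lower in the PC group. Of the 18 list members 4 were in the table (22.2%, against 5.22% of all genes tested), and these 4 separated the groups (median log2 fold change -2.48), as did 64.4% of all genes of the table. The other 3 members with counts were also lower, with a median of -0.24. ADIPOQ, which encodes the fat-cell hormone adiponectin, had 0.49, 3.3 and 3.01 CPM in the PC libraries, against 7.84, 4.86 and 7.61 CPM in the MC libraries (log2 fold change -1.58, SE 0.53). CIDEC, a lipid droplet protein of fat cells, had 0.0544, 0.443 and 0.585 CPM in the PC libraries, against 2.02, 0.898 and 1.66 CPM in the MC libraries (-2.07, SE 0.59). LEP, the gene of leptin, was at 0 in PC2 and PC3 and reached 0.0272 CPM in PC1, against 0.0318 to 0.231 CPM in the MC libraries (-3.16, and -1.98 without MC1). LEP was near the floor in these libraries, so its gap between 0.0272 and 0.0318 CPM rests on library scaling. THRSP, also among the 4, is counted again with milk fat synthesis below. Under feed restriction ADIPOQ was lower in PE than in ME (-1.07), LEP was at 0.00, and the other 2 listed genes were higher (CIDEC at 1.35). The summed level of the 7 members with counts was 6.59, 7.4 and 5.8 CPM in the PC libraries, against 17.5, 10.2 and 14.7 CPM in the MC libraries, and whether fat in the biopsies carried the lower values of the lipid genes below was not tested.

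Genes of milk fat synthesis lay on both sides. In the table were 6 of the 40 list members (15%, against 5.22% of all genes tested), 4 with lower and 2 with higher values in the PC group. The other 13 members with counts were 6 higher and 7 lower (median log2 fold change -0.03). THRSP, a regulator of fatty acid synthesis also made in adipose tissue, had 0.19, 0.388 and 0.0836 CPM in the PC libraries, against 2.57, 0.588 and 1.81 CPM in the MC libraries. ME1, the malic enzyme that supplies NADPH, had 0.272, 0.333 and 0.167 CPM in the PC libraries, against 0.807, 3.1 and 0.573 CPM in the MC libraries. GK, the glycerol kinase, had 2.83, 1.86 and 1.87 CPM in the PC libraries, against 4.32, 6.04 and 3.92 CPM in the MC libraries. All 3 genes were lower in each PC goat than in any MC goat, with log2 fold changes of -2.89 (SE 0.62), -2.52 (SE 0.65) and -1.12 (SE 0.27). The ME1 gene was highest in MC2, and without that library its log2 fold change was -1.41. DGAT2, which makes triacylglycerol from diacylglycerol, was also lower (-3.19, SE 0.92), but MC2 with 0.186 CPM lay below PC2 with 0.388 CPM. SREBF1, the transcription factor of lipid synthesis, ran the other way with 41.6, 22.5 and 17.8 CPM in the PC libraries, against 13.1, 16.4 and 15.2 CPM in the MC libraries (0.87, SE 0.30). PC1 was highest, the groups did not overlap, and without PC1 the log2 fold change was 0.43. Under feed restriction 5 of the 6 listed genes had counts. All 5 were higher in PE than in ME, but DGAT2, LIPG and ME1 had log2 fold changes of only 0.07, 0.16 and 0.33. THRSP was at 0.97 and GK at 1.07. GK alone had an unadjusted p below 0.05 in edgeR, and it had been listed by p for PE over ME.

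LIPG and DPP4 were among the genes with higher values in the PC group. LIPG, the endothelial lipase that hydrolyses lipoprotein phospholipids, had 6.56, 2.3 and 18.8 CPM in the PC libraries, against 1.64, 2.04 and 0.828 CPM in the MC libraries (log2 fold change 2.61, SE 0.66, adjusted p = 0.662 by edgeR). The groups did not overlap, but PC2 lay close to MC2 and PC3 was far above the rest. DPP4, the dipeptidyl peptidase at the cell surface that trims peptide hormones and chemokines, had 9.14, 27.3 and 18.9 CPM in the PC libraries, against 5.22, 6.38 and 1.78 CPM in the MC libraries (2.05, SE 0.48, adjusted p = 0.607 by edgeR). All PC goats were above all MC goats. Without PC3 the log2 fold change of LIPG was 1.55. The primers by which the authors assayed both transcripts by RT-qPCR are printed, so that the measured transcripts are identified.
LIPG forward primer: atgaaaccccaaaccctttt
LIPG reverse primer: acctgccatcacaactcctt
DPP4 forward primer: gcccctgtagtcaaaaagca
DPP4 reverse primer: accacttcctctgccatcaa

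Single signalling genes named by the study were higher in the PC group. RGS4, an inhibitor of G protein signalling, had 54.6, 76.8 and 73.5 CPM in the PC libraries, against 24, 13.8 and 9.1 CPM in the MC libraries. Each MC library lay well below the lowest PC library, and the log2 fold change was 2.13 (SE 0.33), with an adjusted p of 0.552 by edgeR and 0.0002 by DESeq2. IL6R, the receptor of interleukin 6, had 11.2, 5.1 and 11 CPM in the PC libraries, against 4.38, 2.23 and 1.97 CPM in the MC libraries (1.66, SE 0.38). GABRB1, a GABA receptor subunit, had 3.92, 4.49 and 3.76 CPM in the PC libraries, against 0.778, 2.04 and 0.637 CPM in the MC libraries (1.81, SE 0.40). CIT, the citron kinase of cell division, had 3.57, 4.66 and 3.07 CPM in the PC libraries, against 1.76, 1.02 and 0.987 CPM in the MC libraries (1.58, SE 0.31). In IL6R, GABRB1 and CIT each PC goat exceeded each MC goat. Of the ion channels and neurotransmitter receptors in the deposited table GABRB1 was higher and 5 were lower, and of the cytokines, chemokines and receptors 2 were higher and 4 lower. Over all members with counts the cytokine list had 10 higher and 26 lower (median log2 fold change -0.18), and the list of G protein regulators had 3 higher and 6 lower (-0.47).

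Receptors of lactation hormones lay closer together. PRLR, the prolactin receptor, had 69.2, 92.5 and 119 CPM in the PC libraries, against 56.1, 65.3 and 56.8 CPM in the MC libraries (log2 fold change 0.66, SE 0.24). IRS1, a docking protein of the insulin and IGF receptors, had 29.7, 27.6 and 49.7 CPM in the PC libraries, against 19.1, 25.5 and 22.7 CPM in the MC libraries (0.67, SE 0.25). Both genes were higher in each PC goat and highest in PC3, without which their log2 fold changes were 0.44 and 0.35. ERBB3, a receptor of neuregulin, was at 117 CPM in PC3 and had a log2 fold change of 1.28, and of 0.11 without PC3. FGFR1, a fibroblast growth factor receptor, and AREG, the epidermal growth factor receptor ligand amphiregulin, were lower (-0.85, SE 0.26, and -2.15, SE 0.75), and without MC1 the value of FGFR1 was -0.53. The table held 5 of the 52 genes of this list, 3 higher and 2 lower. No member of the lists of lactose and glucose use, luminal keratins and junctions, fasting and glucocorticoid response, or skin and apocrine gland was in the table.

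Abundant genes of transport and of milk immunity lay on both sides. SLC34A2, the sodium-phosphate cotransporter of the apical membrane, had 282, 261 and 251 CPM in the PC libraries, against 31, 117 and 185 CPM in the MC libraries (log2 fold change 1.25, SE 0.50, and 0.81 without MC1). The PC goats were close together, whereas the MC goats spread widely below them. PIGR, which carries immunoglobulin A into milk, had 1409, 806 and 425 CPM in the PC libraries, against 779, 323 and 326 CPM in the MC libraries, and the groups overlapped (0.89, SE 0.50, and 0.37 without PC1). IGJ, the J chain that joins secreted immunoglobulins, was lower with 40.5, 42.3 and 26.7 CPM in the PC libraries, against 127, 54.7 and 47.2 CPM in the MC libraries (-1.07, SE 0.37, and -0.48 without MC1). Of the 16 solute carriers listed, 9 were higher and 7 lower, and of the 10 zinc finger proteins 8 were higher and 2 lower. Of all solute carriers with counts 37 were higher and 39 lower (median log2 fold change 0.00), and of all zinc finger proteins with counts 29 were higher and 22 lower (0.02).

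Single contractile and antioxidant genes were lower in the PC group. ACTG2, the smooth muscle actin of myoepithelium and vessels, had 9.17, 17.2 and 5.1 CPM in the PC libraries, against 22.3, 26.2 and 22.5 CPM in the MC libraries (log2 fold change -1.17, SE 0.36). GPX3, a secreted glutathione peroxidase, had 44.8, 43.7 and 31.8 CPM in the PC libraries, against 69, 83.3 and 66.3 CPM in the MC libraries (-0.86, SE 0.21). Both separated the groups. All 3 members of the myoepithelial and smooth muscle list in the table were lower (ACTG2, DES and SMTN), and so were 3 of 4 heat shock and oxidative stress genes, the exception being CRYAB (0.66, SE 0.26, and 0.35 without PC3). These were 3 of 22 and 4 of 37 list members. Of the heat shock and oxidative stress genes with counts 5 were higher and 11 lower (median -0.13), and of the myoepithelial and smooth muscle genes 1 was higher and 6 lower (median -0.56). CD109, a membrane-anchored protease inhibitor that also binds TGF-beta in human cells, had 0.762, 0.693 and 1.06 CPM in the PC libraries, against 1.93, 3.75 and 5.03 CPM in the MC libraries (-2.08, SE 0.38, adjusted p = 0.552 by edgeR and 0.021 by DESeq2). All PC goats were below all MC goats. Of the 9 surface and secreted peptidases and inhibitors in the table, DPP4 was the only one with a higher value, and of the other members with counts 13 were higher and 18 lower (median -0.06).

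Interferon-stimulated genes had their highest values in MC1. Of the 55 list members 5 were in the table (9.09%, against 5.22% of all genes tested), all with lower values in the PC group. The other 4 members with counts were 1 higher and 3 lower (median log2 fold change -0.10). Like 627 of the 755 listed genes, the 5 had an unadjusted p below 0.05 in edgeR. Without MC1 the count of the 5 with such a p was 0, without PC2 it was 1 and without PC1 it was 2. All 5 stayed lower in each case. Their median log2 fold change was -1.22, and -0.62 without MC1. MX1, an antiviral GTPase, had 1.5, 1.66 and 2.12 CPM in the PC libraries, against 7.9, 1.61 and 2.74 CPM in the MC libraries. OAS1, an antiviral oligoadenylate synthetase, had 0.599, 1.16 and 0.947 CPM in the PC libraries, against 6.03, 1.08 and 0.891 CPM in the MC libraries. In both genes MC1 was high and MC2 lay within the PC values, and the groups overlapped in all 5 listed genes. Under feed restriction 4 of the 5 had counts, all 4 lower in PE than in ME and 2 with an unadjusted p below 0.05. Among these 4, MX1, OAS1 and XAF1 had themselves been listed by p for PE over ME, a choice that favours a low p there. Other immune lists held few genes of the table, with 2 of the macrophage list (AIF1 and C1QC) and 1 each of the neutrophil (NCF4), T and NK cell (FOXP3) and B and plasma cell (IGJ) lists.

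**Figure D3:**
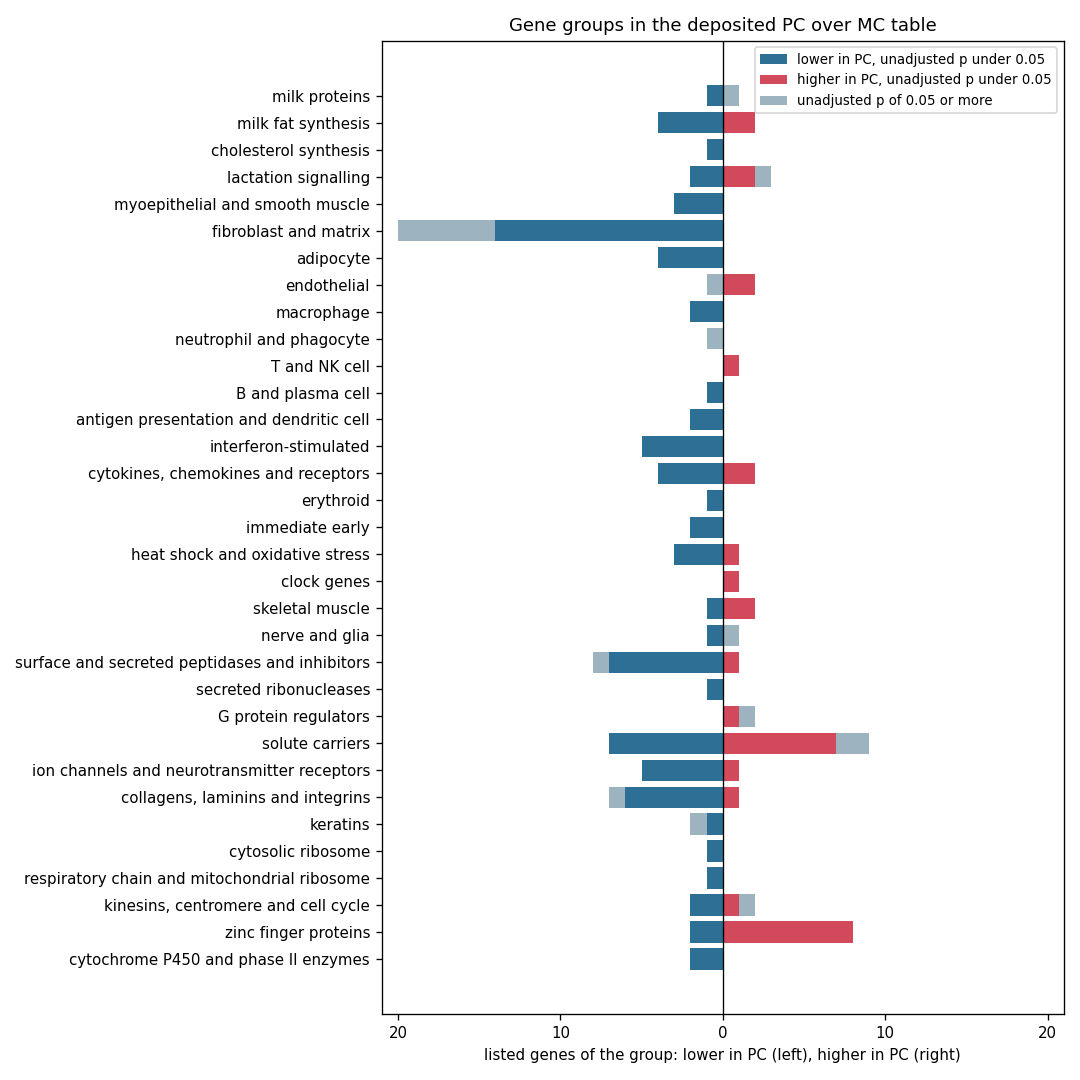
Number of genes of each list or symbol family in the deposited table with a lower value in the PC group (left of 0) or a higher one (right of 0), with an unadjusted edgeR p below 0.05 in blue and red and the others in grey. Fibroblast and matrix genes have 20 members on the left and 0 on the right. Lists with 0 members in the table and genes without a name are left out.

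Some large values belonged to genes without a settled identity. LOC102171034 had 10.9, 10.7 and 68 CPM in the PC libraries, against 113, 216 and 201 CPM in the MC libraries (log2 fold change -2.57, SE 0.67, adjusted p = 0.662 by edgeR). PC3 was the high library of its group, and without it the adjusted p was 0.00103 by edgeR at a log2 fold change of -4.04. LOC102184958, a pseudogene in RefSeq, had 0.762, 5.43 and 4.76 CPM in the PC libraries, against 0.75, 0.0619 and 0.669 CPM in the MC libraries, so that PC1 and MC1 were nearly alike. Expected counts of such genes can be shared with similar copies, and their values are uncertain. HPSE, the heparanase that cleaves heparan sulfate, was at 0 in every PC library and had 0.144, 0.372 and 0.637 CPM in the MC libraries, at least 13.6-fold lower in the PC group against a floor of 3 counts over the group. LOC102190867, another pseudogene, was at 0 in every MC library and had 0.517, 0.111 and 0.334 CPM in the PC libraries, at least 10.6-fold higher on the same floor.

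The deposited genes spanned a wide range of abundance. Since they were chosen by p for this contrast, a gene of low counts entered only with a large fold, and the medians below describe that choice. Of the 437 listed genes averaging 1 CPM or more, 210 were higher in the PC group (median log2 fold change 0.79) and 227 lower (median -0.92). Among the 318 genes below 1 CPM, 101 were higher (1.81) and 217 lower (-1.78). Of all listed genes, 627 had an unadjusted p below 0.05 in edgeR (241 higher, 386 lower), and in 486 the groups did not overlap. Among 768 genes that were not chosen for differing, and that had to reach 1 CPM in 3 libraries, 29 had such a p (3.78%), 81 did not overlap (10.5%) and 4 had an absolute log2 fold change above 1.5. In 93 listed genes a single library held over 50% of the summed CPM, most often MC1 (26 genes), MC3 (19), MC2 (17) and PC3 (15). Such a gene was the pseudogene LOC102176283, with 65.7 CPM in PC3 and no more than 0.527 CPM in any other control library.

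**Figure D4:**
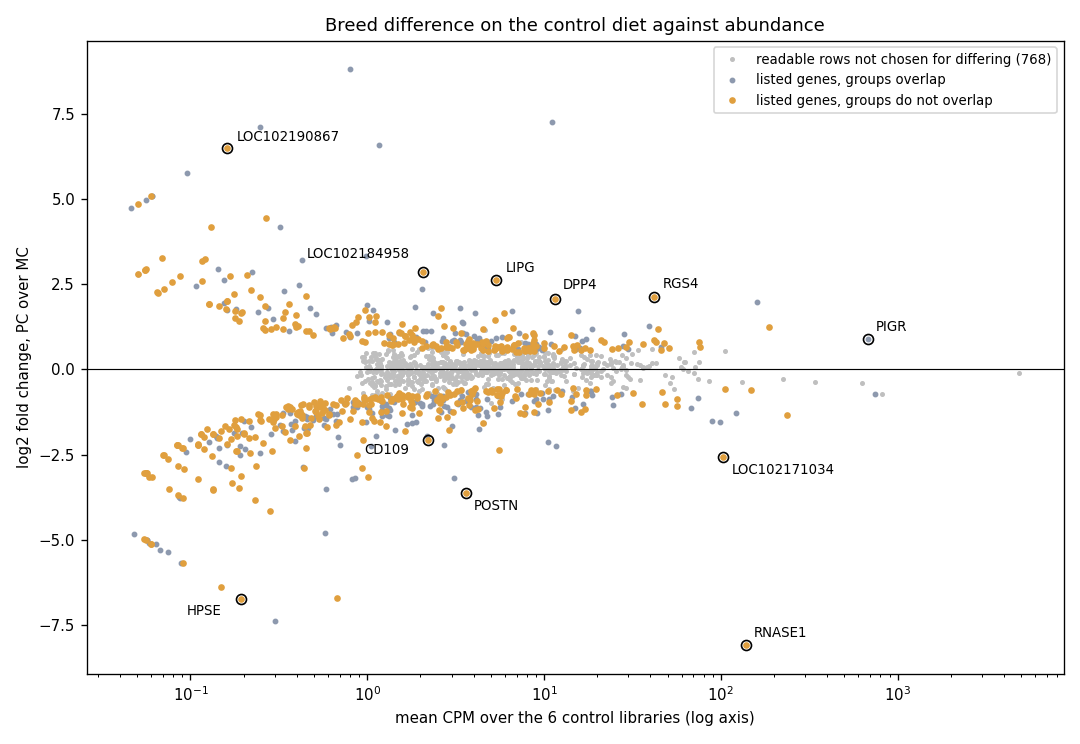
Log2 fold change of PC over MC against mean CPM over the 6 control libraries (log axis). Orange points are listed genes whose groups do not overlap, blue points listed genes whose groups overlap, and grey points 768 genes not chosen for differing. RNASE1 lies lowest at -8.09, and values of genes at 0 in a whole group are fitted values that depend on the model.

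The breed difference was then compared with that under feed restriction, which shares no library with it. Of the 755 genes 101 were also listed for PE over ME, which is 13.4% of the control genes and 11% of the 920 restricted genes, against 6.04% of all genes tested there. The sign was the same in 77 genes (21 higher and 56 lower in Palmera on both diets) and opposite in 24. In 23 of the 77 genes the groups overlapped on neither diet, 3 higher and 20 lower in Palmera. Among the 20 were RNASE1, VIM, HPSE, SLC12A4 (a potassium-chloride cotransporter), ACVRL1 (an endothelial receptor of the TGF-beta family) and VASH2 (vasohibin 2). ACADM, an enzyme of fatty acid oxidation, was higher on both diets. Of the 24 genes of opposite sign, the groups also overlapped on neither diet in 3 that were higher in PC and lower in PE. The same was true of 7 that were lower in PC and higher in PE. All 101 genes were listed by p in both contrasts, a choice that favours groups without overlap. Of 39 listed genes found among genes not chosen by any contrast, 24 had the same sign on both diets (61.5%), beside 357 of 755 such genes in all (47.3%). Only 1 of the 39 had an unadjusted p below 0.05 under restriction.

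DPP4 had opposite breed differences on the diets. Under restriction it had 3.07, 3.8 and 3.26 CPM in the PE libraries, against 10.1, 6.73 and 8.63 CPM in the ME libraries, so that Palmera goats were the lower ones, without overlap. The log2 fold change was -1.33 (SE 0.20), against 2.05 on the control diet. The interaction of breed and diet was 3.40 on the log2 scale (adjusted p = 0.347 by edgeR), which did not pass. LOC102169730 was the only one of 374 genes tested that passed (3.54, SE 0.40, adjusted p = 0.0115 by edgeR), and 111 had an unadjusted p below 0.05. All 374 genes were listed for differing between PC and MC, a choice that favours a low p here. These counts are therefore no measure of how often breed and diet interact. LOC102169730 was itself listed for both diets. This gene had 2.07, 1.97 and 2.28 CPM in the PC libraries and 1.12, 0.96 and 0.891 CPM in the MC libraries. Under restriction it had 0.939, 2.17 and 2.03 CPM in the PE libraries, against 8.07, 11.1 and 8.32 CPM in the ME libraries. The ME goats were the high group, and the PC goats exceeded the MC goats by a smaller step. Genes of the opposite kind, lower in PC than MC and higher in PE than ME without overlap on either diet, were 7, among them CTPS1 of pyrimidine synthesis, SARDH of sarcosine breakdown and the chaperone CLGN. GK, lower in the PC group, had a log2 fold change of 1.07 for PE over ME.

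**Figure D5:**
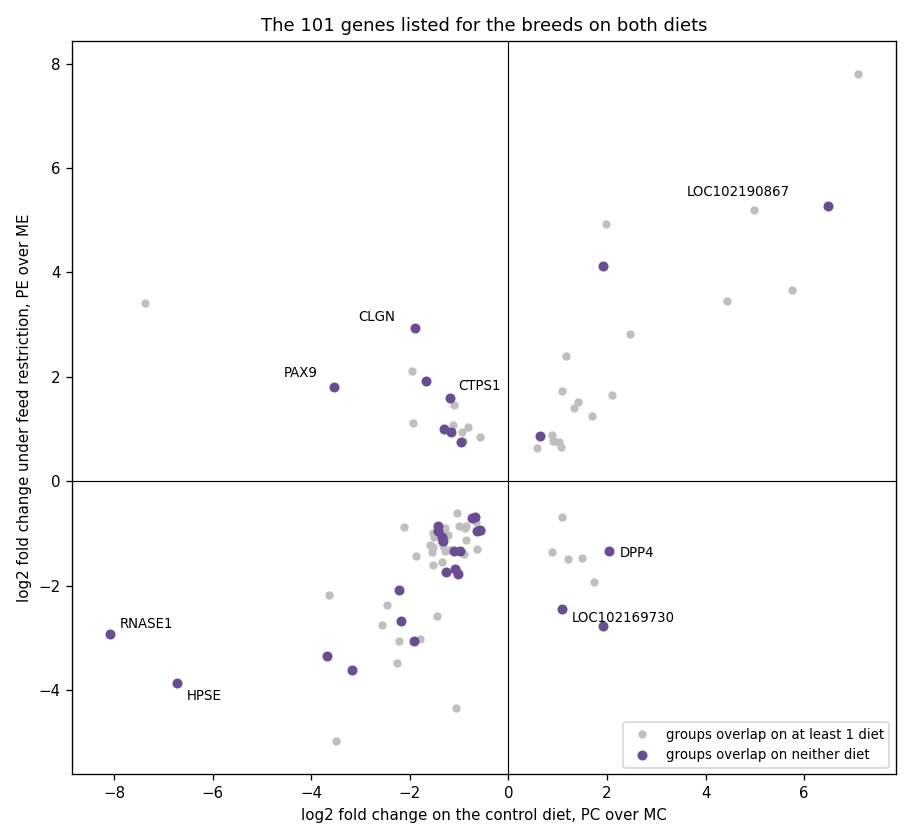
Log2 fold change of Palmera over Majorera under feed restriction (vertical) against that on the control diet (horizontal) for the 101 genes listed for both diets. Purple points are genes whose groups overlap on neither diet. RNASE1 lies at the lower left with -8.09 and -2.93, and DPP4 at the lower right with 2.05 and -1.33.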

How the data were processed

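The authors sequenced stranded poly(A) RNA of mammary biopsies as read pairs, used Bowtie2 2.2.3 to align them to CHIR_1.0, a goat assembly, and estimated counts with RSEM 1.2.17. The deposited expected counts of each gene are unnormalized and stand for single libraries. The authors' edgeR 3.2.4 output, namely deposited p-values, FDR and log2 fold changes, stands beside them. These values are not printed or compared here, but the p-values define the table and, with the FDR, give the number of genes tested. All columns were matched to samples by animal code, and 0 columns were left without a sample.

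Rounded expected counts of the 6 control libraries were fitted with edgeR 4.0.16 (limma 3.58.1, R 4.3.3; DESeq2 1.42.0 as alternative). The deposited tables hold selected genes, so effective library sizes were mapped reads of the study times TMM factors over the first 1998 of 24260 rows of its supplementary count table, and the trend of the spread came from 768 of these rows, those reaching 1 CPM in 3 or more libraries. The 768 rows are also the background not chosen for differing. DESeq2 instead set its spread on all genes with counts, those of the deposited table included. P was adjusted over 14469 genes (15221 under restriction and for the interaction), assuming a larger p for genes that a table leaves out. TMM factors were 1.25, 1.02 and 1.17 in PC and 0.91, 0.867 and 0.849 in MC. Restricted libraries were scaled in a fit of their own. With 3 goats per group, edgeR p-values set each difference against the spread between goats, drawn toward the trend over the 768 rows. The test was tested on simulated data with the same spread for all genes, which does not bear on the calls above.

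Members, 28 gene lists and 12 symbol families were chosen with earlier results of these data known. Named genes were those the paper names for this pair, those called by edgeR or DESeq2, the 15 highest and 15 lowest without overlap and with a mean of at least 1 CPM, the 12 most abundant, genes at or near 0 in a breed, and up to 6 members of each list with the smallest p. Genes of both breed tables and of the interaction, those at 0 in a whole group, LOC102176283 and the list members outside the table were chosen after their values were seen. A gene of these lists is not reported here and was left out of its list and of the counts of alternatives. Gene names, biotypes and the order of neighbouring genes came from RefSeq ARS1.2, which held 698 of 753 gene IDs, and no coordinates are printed. Alternatives were scaling, tool, filter, replicate block and each library left out. Figures and counts used Python 3.11.15, pandas 2.3.3, numpy 2.4.6 and matplotlib 3.10.9.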

Additional observations from a re-analysis of the deposited data

Results flagged for a closer look

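LOC102169730 stood out because its breed difference differed between the diets in a test of that difference. The log2 fold change was 1.08 for PC over MC and -2.44 for PE over ME. The interaction fitted on all 12 libraries was 3.54 on the log2 scale (SE 0.40, adjusted p = 0.0115 by edgeR's quasi-likelihood test over 15221 genes). All 3 PC libraries were above all 3 MC libraries, and all 3 PE libraries were below all 3 ME libraries. The gene was listed for both diets, so it had been selected on both contrasts. The cause was not tested.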

How the results depend on the processing

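The count of called genes was 1 with DESeq2 size factors, mapped reads alone, other scalings, all 12 libraries, and no minimum count or fold. It was 4 with DESeq2's Wald test and 18 with no filter on the rows that set the spread (26 at an adjusted p below 0.05). Leaving out each library gave 0 to 3 calls. Without PC2 there were 0 by edgeR, with 480 genes at an unadjusted p below 0.05, and without PC3 there were 3 (RNASE1, LOC102171034 and the immunoglobulin V segment LOC102186478). Genes at an unadjusted p below 0.05 were 627, and 409 to 480 with each library left out (409 without MC1). In the fit of all 12 libraries they were 236, of the 374 genes with counts in each. Genes without overlap were 486, 396 with mapped reads alone, and 530 to 577 with a library left out. The CSN2 difference was 13.5 percentage points and 6.56 to 17.3 with a library left out (6.56 without PC1). Of 1724 alternatives for the named genes reported here 1700 kept direction and side of the threshold, 23 passed it, 1 lost it (RNASE1 without PC2) and 0 reversed. Mapped reads alone shifted the median log2 fold change by 0.39, and 0 listed genes changed sign. The 318 listed genes averaging below 1 CPM rest on few counts.

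Replicate numbers name goats of different breeds. With the replicate block the calls were 1 and the genes with an unadjusted p below 0.05 were 533. Deviations of same-numbered libraries correlated at -0.113, 0.0701 and -0.16, so the numbers do not pair the goats.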

Other observations

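Among listed genes that are neighbours in the RefSeq ARS1.2 gene order, 24 of 37 adjacent pairs had the same sign, a description with no test. The share of same-sign pairs among listed genes that are not neighbours was not computed. The chemokine genes CCL26 and CCL24 were both lower in the PC group (log2 fold changes -1.28 and -1.45), and the small heat shock genes HSPB2 and CRYAB were both higher (1.18 and 0.66). DPP4 had SLC4A10, a bicarbonate transporter, as its neighbour, with log2 fold changes of 2.05 and 3.24. COL3A1 and COL5A2 were both lower (-1.28 and -0.87), next to GULP1, which was higher (1.39). Pairs with opposite signs included MX1 and TMPRSS2 (-1.22 and 0.76) and BOLA3 and TET3 (-1.03 and 1.54). These pairs were chosen after their values were seen.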
